A study of Homo sapiens with 8 samples.

Results

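In HCEC-1CT human colonic epithelial cells, 5664 intergenic intervals marked by H3K27ac lay 10 to 200 kb from the nearest protein-coding transcript start, out of 35524 intervals kept over the genome (15.9%). Peaks of 6 H3K27ac libraries were merged where they overlapped, and an interval was kept when its highest peak had a fold of at least 5 in all 3 WT or all 3 CREBBP-KO libraries. The fold is the enrichment of a peak over its local background, as the authors' peak caller MACS2 gave it. A kept interval became a member when the summit of its highest peak lay outside all protein-coding genes, 10 to 200 kb from the nearest start of a protein-coding transcript and over 3 kb from the start of any transcript (GENCODE release 44, hg38). The rest were 10821 intervals with a summit inside protein-coding genes and over 3 kb from a start, 16090 within 3 kb of a start, 739 intergenic ones under 10 kb and 2210 beyond 200 kb.

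Acetylation of lysine 27 of histone H3 marks active promoters and active enhancers, the DNA elements that raise transcription of a gene from a distance by binding transcription factors and contacting its promoter. Much of the mark is laid down by CREBBP (CBP) and its paralogue EP300 (p300), acetyltransferases that transcription factors recruit to enhancers. Between genes, far from any start, the mark is commonly read as a sign of an enhancer, and AP-1, a dimer of FOS and JUN proteins, is among the factors often bound at such elements in epithelial and stromal cells.

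The design set 3 WT libraries against 3 CREBBP-KO libraries, each from an independent population of growing cells at about 70% confluence. Both genotypes were HCEC-1CT cells kept in medium with EGF, insulin and hydrocortisone, immortalized by CDK4 and telomerase. The methods call the CREBBP-KO cells used for ChIP monoclonal, and also say that several clones per target were combined, beside a pool of parental subclones. Which of these the 3 populations were is not stated, and what belongs to the clones used cannot be told apart from what belongs to the knockout. The p-values measure the spread between these populations.

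The labelled cell type was checked at promoters, by the highest peak within 1 kb of a start. Of 14 epithelial markers, 1 (CLDN7) reached a fold of 5 in all 6 libraries and 7 had no peak in any, among them CDH1, KRT19, KRT20 and VIL1. EPCAM, KRT8 and MUC2 had a peak in all 6 but stayed under that fold in at least 1. At MUC2 the folds were 4.45, 4.76 and 4.54 in WT and 8.72, 9.83 and 11.6 in CREBBP-KO. LGALS4 went the other way, with folds of 4.47, 4.19 and 4.14 in WT and no peak in CREBBP-KO. By contrast, 11 of 14 mesenchymal markers reached a fold of 5 in all 6 libraries. Of 22 intestinal transcription factors 7 reached that fold in all 6, including HNF4G, KLF5 and EHF, while CDX1, CDX2 and HNF4A had no peak. GATA6 had peaks in the CREBBP-KO libraries alone, with folds of 5.24, 7.34 and 6.06. None of 14 immune, endothelial and neural markers reached it in all 6 libraries and 12 had no peak. Most listed markers of the labelled colonic epithelium thus did not reach a fold of 5 in all 6 libraries. No peak in any library was found for 7 of the 14 epithelial markers and 13 of the 22 intestinal factors. Folds summed over all 14 mesenchymal markers spanned 188.5 to 200.8 (WT) and 255.7 to 285.3 (CREBBP-KO). For the 22 intestinal factors the spans were 83.7 to 100.2 (WT) and 116.9 to 122.0 (CREBBP-KO). Epithelial sums overlapped, at 27.9 to 34.3 (WT) and 33.0 to 36.4 (CREBBP-KO). Folds near starts were higher in CREBBP-KO in general, with a mean of the medians of 10.2 in WT and 11.9 in CREBBP-KO. What part of the mesenchymal rise goes with this was not tested. That the members act as enhancers was not tested by any other mark.

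Most members held a copy of the AP-1 motif TGANTCA within 500 bases of the summit, and the following stretches of hg38, read on the plus strand, show it in capitals at the centre of 61 bases. The first pair comes from the strongest members, the second pair from members with large shifts up in CREBBP-KO, the third from members with large shifts down, and the last pair from a member with peaks in WT alone and one with peaks in CREBBP-KO alone.
AKR1E2, chr10:4771500-4771560: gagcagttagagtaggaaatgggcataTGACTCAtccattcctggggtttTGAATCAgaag
KIF18A, chr11:27934943-27935003: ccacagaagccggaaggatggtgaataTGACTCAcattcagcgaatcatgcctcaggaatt
POU3F1, chr1:38131135-38131195: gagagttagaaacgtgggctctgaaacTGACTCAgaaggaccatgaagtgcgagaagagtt
NUAK1, chr12:106030601-106030661: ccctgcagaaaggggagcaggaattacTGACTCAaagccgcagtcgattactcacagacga
LRATD1, chr2:14700838-14700898: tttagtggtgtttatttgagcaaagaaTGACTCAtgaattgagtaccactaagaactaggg
UST, chr6:148657276-148657336: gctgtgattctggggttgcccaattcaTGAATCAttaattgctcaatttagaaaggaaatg
LRRC3B, chr3:26438422-26438482: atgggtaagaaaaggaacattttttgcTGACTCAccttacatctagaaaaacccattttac
FOXO1, chr13:40476916-40476976: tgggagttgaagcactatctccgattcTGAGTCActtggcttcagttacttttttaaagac
Each name is that of the gene whose protein-coding start is nearest, which need not be the gene an element acts on. The site near AKR1E2 held 2 matches within the 61 bases. The sites were picked among named members with a match within 500 bases of the summit, and many had none. Among the strongest, those near VGLL3, MAP2K6 and CYTH3 had none. Nor did those near AOAH, RBBP8, DAAM1, BDH1, EMSY and FOXD1 among the large shifts up. Among the large shifts down, those near MYO16, PSMG1, SCRN1, SLITRK3 and H2AZ1 had none.

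Base composition also varied among members, and it moved with the difference between genotypes described further on. The 201 bases around the summit of a member near SMAD7 that ranked higher in CREBBP-KO had a GC content of 74.6%, and those of the member near LRATD1 that ranked lower had 37.3%. Both are shown on the plus strand, with no capitals because neither window held an AP-1 match.
SMAD7, chr18:48975497-48975697: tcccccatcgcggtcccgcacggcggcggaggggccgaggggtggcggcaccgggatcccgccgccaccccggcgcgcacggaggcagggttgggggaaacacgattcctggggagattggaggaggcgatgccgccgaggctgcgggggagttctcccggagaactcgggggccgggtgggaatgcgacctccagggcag
LRATD1, chr2:14701190-14701390: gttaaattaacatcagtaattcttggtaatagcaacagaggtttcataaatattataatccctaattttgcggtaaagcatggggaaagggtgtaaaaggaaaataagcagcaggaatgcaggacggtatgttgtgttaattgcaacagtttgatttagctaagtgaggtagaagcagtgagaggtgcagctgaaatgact

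Members were of middling height. Their median fold was 8.28, 8.18 and 7.72 in the 3 WT libraries and 8.05, 8.26 and 8.25 in the CREBBP-KO libraries, or 8.06 ± 0.301 and 8.19 ± 0.120 (SD, n = 3 each). The ranges overlapped (two-sided exact permutation test, p = 0.7, where 0.1 is the smallest p for 3 libraries against 3). As a fold depends on each library's own background, intervals were also ranked by fold within each library over all 34847 intervals with a peak in all 6, and ranks were turned into normal scores with median 0. On this scale the members' median was -0.17 ± 0.05 in WT and -0.23 ± 0.01 in CREBBP-KO (SD, n = 3 each; exact permutation test, p = 0.2). WT libraries 1 and 2 lay above the 3 CREBBP-KO libraries and WT library 3 lay among them.

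Members stood slightly higher than intervals inside genes. The difference of the medians, members minus intervals inside genes, was 0.09 on the normal-score scale, between 0.07 and 0.13 in the single libraries and positive in 6 of 6 (two-sided exact sign-flip permutation test over libraries, p = 0.0312, the smallest that 6 libraries allow). Against intergenic intervals beyond 200 kb the difference was 0.08 and positive in 5 of 6 libraries (p = 0.0625, exact sign-flip permutation test). The 3 WT libraries averaged 0.01 and the 3 CREBBP-KO libraries 0.16, with no overlap between them (p = 0.1, exact permutation test). Intervals within 3 kb of a start stood 0.54 above the members, in 6 of 6 libraries. The plot of medians by position class shows overlapping genotypes for the members, whereas near starts the mean of the medians was 10.2 in WT against 11.9 in CREBBP-KO, without overlap (p = 0.1, exact permutation test).

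**Figure D1:**
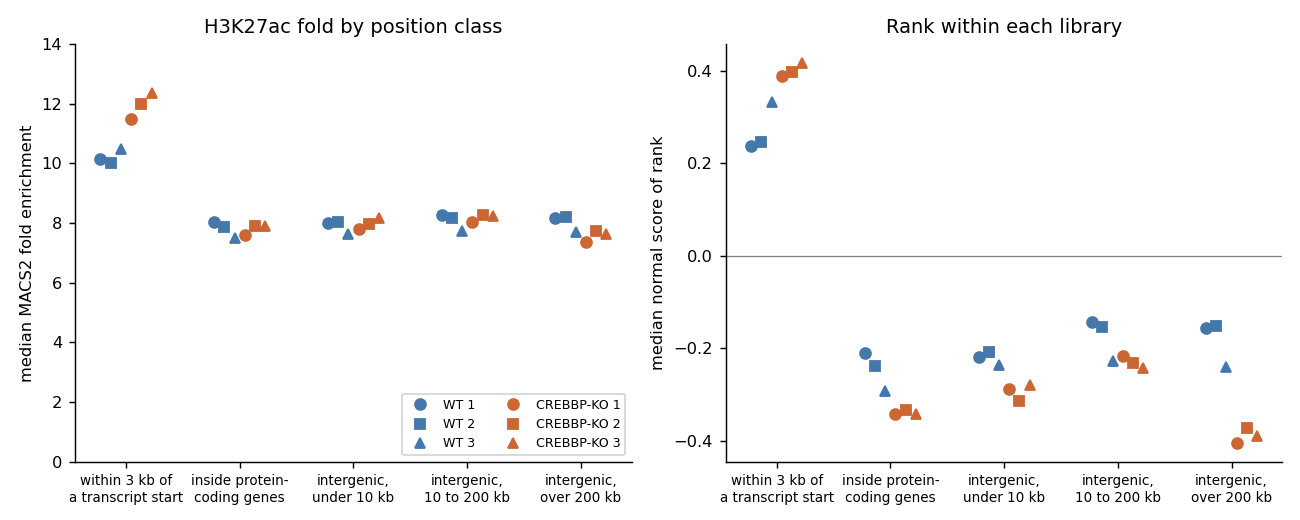
Median MACS2 fold enrichment (left) and median normal score of the within-library rank (right) of the intervals of each position class, with 1 point for each of 3 WT (blue) and 3 CREBBP-KO (orange) libraries. The members (intergenic, 10 to 200 kb) sit between folds of 7.72 and 8.28 with the genotypes overlapping, and the intervals within 3 kb of a start sit above all others.

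The 6 strongest members, by mean rank over the 6 libraries, lay near KPNA3, AKR1E2, VGLL3, MAP2K6, KIF18A and CYTH3, at distances from 10.5 to 196.2 kb. Near AKR1E2, an aldo-keto reductase gene, the interval chr10:4761493-4774137 had folds of 45.1, 42.6 and 41.7 in WT and 34.2, 38.8 and 37.4 in CREBBP-KO. All 3 CREBBP-KO values lay below the WT values, and the shift of the normal score, CREBBP-KO minus WT, was -1.05 ± 0.25 (SE, n = 3 against 3, limma adjusted p = 0.00222). Near KPNA3, which encodes an importin, the folds of chr13:49855141-49863054 were 39.2, 31.4 and 30.5 in WT and 42.2, 43.2 and 46.3 in CREBBP-KO. Although its CREBBP-KO folds were above the WT folds, its rank hardly moved, with a shift of 0.27 ± 0.24 (SE, n = 3 against 3, limma adjusted p = 0.388).

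KIF18A encodes a kinesin that controls chromosome alignment in mitosis, and the member 173.4 kb from its start (chr11:27931588-27939446) had folds of 30.4, 30.1 and 28.9 in WT and 39, 38.1 and 35.5 in CREBBP-KO. These folds did not overlap either, and the shift again did not pass the test, at 0.17 ± 0.21 (SE, n = 3 against 3, limma adjusted p = 0.534). CYTH3, a guanine exchange factor for ARF GTPases, had 29.4, 27.3 and 28.5 in WT and 40.6, 39.4 and 40.5 in CREBBP-KO, with a shift of 0.48 ± 0.20 (SE, n = 3 against 3, limma adjusted p = 0.0673). Over all kept intervals the 95th percentile of the fold was 19.7 to 20.8 in the WT libraries and 22.6 to 23.9 in the CREBBP-KO libraries, so a fold that rose with the tallest intervals kept its rank.

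At the strongest end 2 members were called, both lower in CREBBP-KO: the one near AKR1E2, and that near VGLL3, a cofactor of TEAD transcription factors, at chr3:86791038-86796253. The latter had folds of 43.4, 35 and 37.1 in WT and 33, 39.4 and 35.2 in CREBBP-KO and a shift of -0.71 ± 0.23 (SE, n = 3 against 3, limma adjusted p = 0.0188), and the genotypes overlapped in fold. The call near VGLL3 was lost when WT library 1, CREBBP-KO library 1 or CREBBP-KO library 3 was left out. MAP2K6, a kinase upstream of p38, had 33.4, 35.7 and 32.8 in WT and 31.9, 35.8 and 38.3 in CREBBP-KO and a shift of -0.37 ± 0.22 (SE, n = 3 against 3, limma adjusted p = 0.183).

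Most members were shared by the genotypes. Of the 5664, 3729 (65.8%) reached a fold of 5 in all libraries of both, 820 (14.5%) did so in WT only and 1115 (19.7%) in CREBBP-KO only, where the shares over all kept intervals were 73.9%, 11.3% and 14.8%. Passing alone rarely meant absence elsewhere. Among the 820, 753 (91.8%) still held peaks in each CREBBP-KO library, with a median fold of 6.69 in WT and 4.70 in CREBBP-KO, and among the 1115, 1001 (89.8%) had a peak in all 3 WT libraries. In single libraries, 4895 ± 85.1 members of the WT libraries and 5138 ± 30.01 of the CREBBP-KO libraries reached the fold (SD, n = 3 each), and the ranges did not overlap (p = 0.1, exact permutation test). The lists of peaks were also longer in CREBBP-KO, from 99008 to 111697 against 86163 to 93567.

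A peak of any fold was present in all 6 libraries for 5483 members (96.8%, against 98.1% of all kept intervals), and these were tested for a shift in rank with limma over all 34847 such intervals. At an adjusted p under 0.05, 969 members (17.7%) ranked higher in CREBBP-KO and 1286 (23.5%) ranked lower. Over all tested intervals the shares were 18.6% and 18.7%. They were 13.2% and 23.6% inside genes, 10.2% and 32.6% beyond 200 kb and 23.7% and 11.9% within 3 kb of a start. Members were thus called lower more often than all tested intervals together, but about as often as intervals inside genes. The members' median shift was -0.07, against 0.02 over all tested intervals. It was -0.13 for intervals inside genes, -0.28 for those beyond 200 kb and 0.16 for those within 3 kb of a start. With an adjusted p under 0.0001, 82 members (1.5%) were higher and 120 (2.19%) lower, where the background was 1.17% and 1.63%.

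The filter itself forces intervals that pass in 1 genotype alone to lean towards it, so the counts were also taken over the 3729 members passing in both. For the same reason the shift of a named member that passed in 1 genotype alone is given as a description, without its p-value. Of the 3729, 417 (11.2%) ranked higher and 761 (20.4%) lower, against 15.5% and 15.8% over the 26244 intervals of any class that passed in both. Inside genes the shares among intervals passing in both were 8.44% and 20.6%. Counted by overlap alone, all 3 CREBBP-KO scores lay above all 3 WT scores at 1239 tested members (22.6%, background 24.8%) and below them at 1546 (28.2%, background 23.3%). Scores of members correlated at 0.883 to 0.898 between libraries of 1 genotype and at 0.614 to 0.634 between genotypes, given here as a description over 5483 members that share each library.

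**Figure D2:**
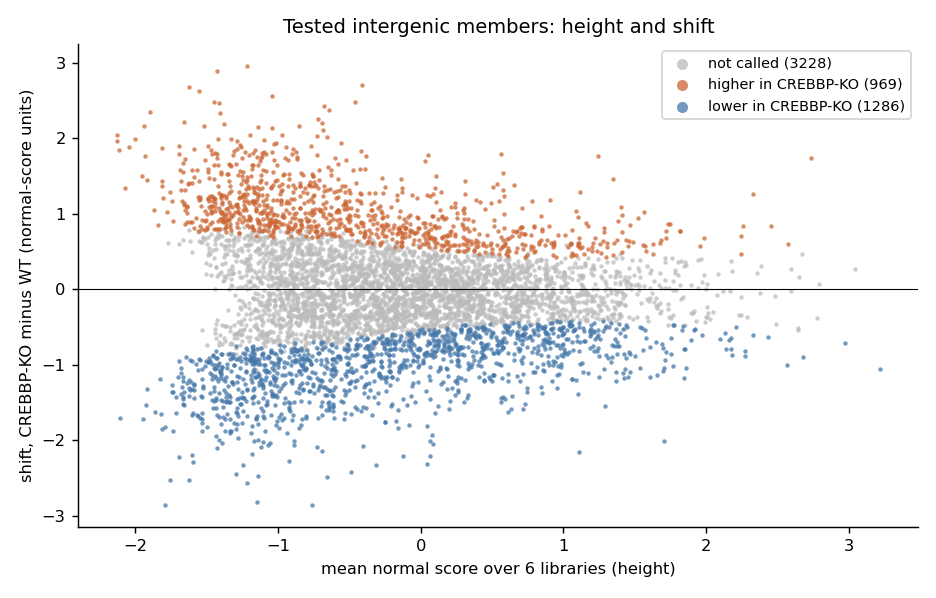
Shift of the normal score (CREBBP-KO minus WT, y axis) against the mean normal score over the 6 libraries (x axis) for each of the 5483 tested members, coloured where the limma adjusted p is under 0.05. Called members lie on both sides of 0 at every height, 969 above and 1286 below, and the widest shifts are at members of low mean height.

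Shifts were widest among weak members. In the weakest quartile by mean rank the median absolute shift was 0.87 and in the strongest 0.36. Of the strongest quartile, 12.7% were called higher and 27.4% lower, and all 1371 of these passed in both genotypes. In the weakest quartile 29.2% were called higher and 27.9% lower, but 7.08% of it passed in both, and the filter selects such members for a difference.

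The 10 largest shifts upwards, with no overlap between genotypes, were at members near AOAH, CCN4, RBBP8, POU3F1, DAAM1, CPLANE1, BDH1, EMSY, FOXD1 and NUAK1. All 10 passed the fold filter in CREBBP-KO alone, which selects for this direction. Near AOAH, whose product inactivates bacterial lipopolysaccharide, the interval chr7:36745465-36748528 had folds of 2.96, 3.32 and 2.48 in WT and 11.9, 10.4 and 10.8 in CREBBP-KO. The shift was 2.96 ± 0.29 (SE, n = 3 against 3; it passed in CREBBP-KO alone), from a mean percentile of 0.455 in WT to one of 60.2 in CREBBP-KO. RBBP8 encodes CtIP, which starts the resection of DNA breaks, and chr18:22637030-22640937, 159.7 kb from its start, had 4.42, 4.02 and 4.1 in WT and 16.1, 16.5 and 16.5 in CREBBP-KO. Replicates differed little here, with means of 4.18 ± 0.209 in WT and 16.4 ± 0.229 in CREBBP-KO (SD, n = 3 each), and the shift was 2.71 ± 0.24 (SE, n = 3 against 3; it passed in CREBBP-KO alone).

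POU3F1, a POU-domain transcription factor, had the member chr1:38129361-38133693 at 84.0 kb, inside a lncRNA gene, with folds of 2.68, 2.57 and 2.69 in WT and 8.29, 6.64 and 9.93 in CREBBP-KO. Close to the start of another developmental factor, FOXD1, at 10.99 kb, the folds were 3.74, 2.57 and 2.78 in WT and 8.76, 8.58 and 8.31 in CREBBP-KO. BDH1, an enzyme of ketone body metabolism, had 3.98, 4.97 and 3.98 in WT and 13.8, 16.3 and 14.9 in CREBBP-KO at chr3:197486442-197492046, and NUAK1, a kinase related to AMPK, had 3.65, 5.3 and 3.25 in WT and 13.2, 14.6 and 11.3 in CREBBP-KO at chr12:106029288-106032231. At each of these the lowest CREBBP-KO value was above the highest WT value. The shifts of the 10 members ran from 2.43 to 2.96, and their GC content from 38.8% to 55.7%.

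In the other direction the 10 largest shifts were near PSG5, LRATD1, MYO16, PSMG1, GEM, SCRN1, SLITRK3, GRB14, H2AZ1 and UST. These 10 passed the filter in WT alone. Near PSG5, a pregnancy-specific glycoprotein gene, chr19:43140898-43142879 had folds of 8.88, 6.52 and 7.19 in WT and 3.07, 2.31 and 2.45 in CREBBP-KO, with a shift of -2.85 ± 0.31 (SE, n = 3 against 3; it passed in WT alone). The member near LRATD1 (chr2:14699795-14702882) was taller in WT, with folds of 15, 12.7 and 10.4 in WT and 3.31, 5.02 and 3.27 in CREBBP-KO and a shift of -2.85 ± 0.30 (SE, n = 3 against 3; it passed in WT alone). UST encodes a sulfotransferase of glycosaminoglycans, and chr6:148656268-148659316 had 14.6, 10.5 and 14.3 in WT and 4.87, 5.14 and 3.86 in CREBBP-KO, a shift of -2.42 ± 0.27 (SE, n = 3 against 3; it passed in WT alone).

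GRB14, an adaptor that restrains the insulin receptor, had a member 180.1 kb away at chr2:164387606-164390013 with folds of 10.5, 9.56 and 8.09 in WT and 4.3, 3.95 and 2.59 in CREBBP-KO. Near H2AZ1, the gene for the histone variant H2A.Z, chr4:100013776-100018946 had 8.06, 8.87 and 8.79 in WT and 2.99, 3.74 and 3.34 in CREBBP-KO. MYO16, an unconventional myosin gene, had 9.06, 10.5 and 11 in WT and 2.71, 3.91 and 3.38 in CREBBP-KO. In all of the 10 the genotypes were apart in every library, the shifts ran from -2.42 to -2.85, and the GC content from 33.1% to 47.3%. In the lower genotype the folds of the 20 members lay between 2.21 and 5.30.

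**Figure D3:**
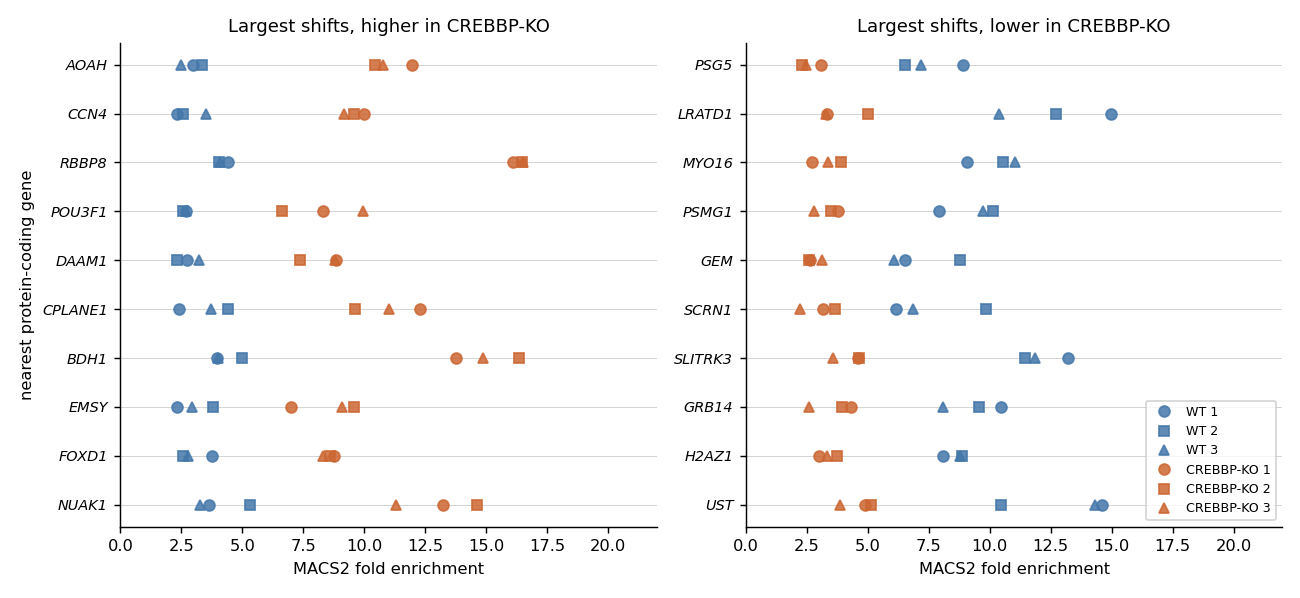
MACS2 fold enrichment (x axis) in each WT (blue) and CREBBP-KO (orange) library at the 10 members with the largest shift in each direction, named by the nearest protein-coding gene. Within each member the 3 libraries of 1 genotype lie apart from the 3 of the other, as at RBBP8, where WT spans 4.02 to 4.42 and CREBBP-KO 16.1 to 16.5.

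Full presence in 1 genotype and absence of any peak in the other was rare, at 13 members in WT and 26 in CREBBP-KO, as it was over all 35524 kept intervals, at 58 and 104. Leaving out WT library 3 raised the first count to 22, and leaving out WT library 2 or CREBBP-KO library 1 raised the second to 43 or 41. The tallest WT-restricted member was chr4:10179611-10185046, 64.2 kb from WDR1, a gene for a factor that disassembles actin filaments, with WT folds of 13, 14.3 and 13.5. It was the only one of the 13 to keep its place at a fold of at least 10. The next were near FLT1, a receptor of vascular endothelial growth factor, with 8.96, 8.35 and 7.94, near KBTBD8 with 9.13, 7.41 and 8.2, and near LRRC3B with 9.04, 6.52 and 6.45.

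Restricted to CREBBP-KO, the tallest was chr5:174824047-174830784, 101.6 kb from MSX2, a homeobox gene induced by BMP signals, with folds of 13.1, 7.8 and 8.1. A member near GUCY1A2, a subunit of soluble guanylate cyclase, had 9.37, 9.2 and 9.86. FOXO1, a forkhead factor restrained by insulin signalling, had one 190.0 kb away with 7.78, 9.93 and 9.38, and IGFL3 one at 15.7 kb with 10.2, 5.57 and 5.65. In 2 of these 4, near MSX2 and IGFL3, CREBBP-KO library 1 stood above the other two.

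GC content moved with the direction of the shift. Tested members were split into quartiles by the GC content within 500 bases of the summit, with quartile medians of 36.1%, 40.6%, 44.8% and 51.5%. The share ranked higher in CREBBP-KO rose over these from 8.61% to 14.5%, 19.1% and 28.5%, and the share ranked lower went from 37.6% to 25.5%, 20.5% and 10.2%. Median GC was 45.7% around the summits of the higher members and 39.9% around those of the lower. Cut instead at the quartiles of the members' interval GC content, the members' share ranked higher went from 8.90% to 28.2% and the share ranked lower from 37.2% to 11.8%. Inside genes, over those interval cuts, the share ranked higher went from 6.36% to 23.9% and the share ranked lower from 33.5% to 10.96%. The trend was thus not particular to intergenic members. With the trends of the score on GC content and interval length removed in each library, 983 members ranked higher and 1067 lower (17.9% and 19.5%), against 15.6% and 16.1% of all tested intervals, and the members' median shift was -0.02. Of the 1286 members called lower, 960 were called lower in that fit and 0 higher, and of the 969 called higher, 793 were called higher and 0 lower.

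Distance to the nearest protein-coding start mattered less. From 10 to 20, 20 to 50, 50 to 100 and 100 to 200 kb there were 917, 1762, 1511 and 1474 members, of which 18.5%, 18.6%, 17.4% and 16.3% of those tested ranked higher and 22.4%, 21.8%, 22.9% and 26.8% ranked lower. Median GC content went from 43.8% in the nearest bin to 40.4% in the farthest, and the part of this order that goes with GC content was not tested. Median folds were 8.21, 8.15, 7.90 and 8.34 in WT and 8.26, 8.45, 8.02 and 8.26 in CREBBP-KO, with no order by distance. The share inside a lncRNA gene rose from 19.4% to 36.4%. Of the 1562 members inside a lncRNA gene 15.8% ranked higher and 24.3% lower, and of the 4102 outside 18.4% and 23.1%, both over the tested ones.

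**Figure D4:**
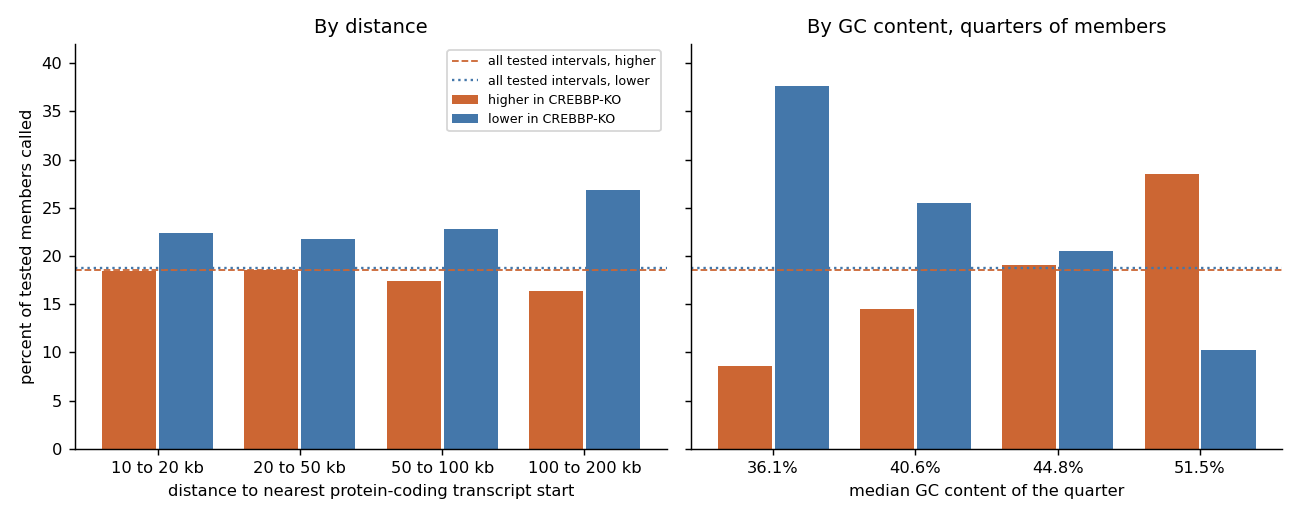
Percent of tested members ranked higher (orange) or lower (blue) in CREBBP-KO, by distance to the nearest protein-coding transcript start (left) and by quartile of GC content around the summit (right), with lines for all tested intervals. The bars by distance stay within 16.3% to 26.8%, while those by GC content cross, from 8.61% higher and 37.6% lower to 28.5% higher and 10.2% lower.

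At the edges of the rule values were continuous. Members from 10 to 12 kb (207) were called higher in 17.4% and lower in 24.9%, and the 222 intervals from 8 kb to just under 10 kb in 16.2% and 21.8%. At the far edge, 201 members from 180 kb up to the limit gave 13.1% and 29.3%, and 189 intervals from there to 220 kb gave 12.1% and 29.1%. Just inside the fold threshold, 67 members had a deciding fold between 5.006 and 5.048, and just outside it, 94 intervals had one between 4.951 and 4.998.

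Members near genes of signalling pathways were counted by the nearest start. The counts of this and the following lists include members that passed the fold filter in 1 genotype alone, which leans them towards it. They were not retaken over members passing in both, which made up 71.0% of the TGF-beta and BMP list below. As the lists were chosen with earlier results of these data known, the counts are a description. For TGF-beta and BMP signalling, in which ligands of the TGF-beta family activate SMAD transcription factors that induce ID genes and inhibitory SMADs, 61 tested members lay near 17 of 27 listed genes. Of these 17 (27.9%) ranked higher in CREBBP-KO and 6 (9.84%) lower, with a median shift of 0.15, against 17.7%, 23.5% and -0.07 over all members. With the GC and length trends removed the counts were 11 (18.0%) and 4 (6.56%), and 17.9% and 19.5% of all members were called in that fit, so that the share ranked higher was then near that of all members. Higher members lay near FST, GREM1, ID2, INHBA, NOG, SMAD3, SMAD6, SMAD7 and TGFBI, and lower ones near BMP2, BMP6, FST and ID3. The list's median interval GC content, 43.4%, was 42.3% over all members.

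Among inhibitors of this pathway, SMAD7 had the widest shift. Its member chr18:48975099-48976451, 24.6 kb from the start and with an interval GC content of 71.1%, had folds of 3.95, 4.56 and 3.71 in WT and 12.8, 14.2 and 12.4 in CREBBP-KO, without overlap and with a shift of 2.38 ± 0.26 (SE, n = 3 against 3; it passed in CREBBP-KO alone). SMAD6, which also blocks receptor-activated SMADs, had a taller member at chr15:66840873-66843578 with 17, 16.4 and 19.3 in WT and 24.3, 30.8 and 25.4 in CREBBP-KO, a shift of 0.60 ± 0.17 (SE, n = 3 against 3, limma adjusted p = 0.0101) that did not pass with the GC and length trends removed or without CREBBP-KO library 2. INHBA encodes a subunit of activin, and a weak member 174.7 kb away had 2.32, 2.56 and 3.06 in WT and 5.32, 5.98 and 5.33 in CREBBP-KO, with a shift of 1.85 ± 0.31 (SE, n = 3 against 3; it passed in CREBBP-KO alone). FST binds and blocks activin, and its strongest member, chr5:53415589-53420991, went the other way with 29.6, 29.8 and 30.8 in WT and 24, 23.3 and 27 in CREBBP-KO and a shift of -0.86 ± 0.18 (SE, n = 3 against 3, limma adjusted p = 0.00105). SMAD3, the signal-transducing SMAD, had 31.1, 24.7 and 28.9 in WT and 23.9, 31.6 and 30.7 in CREBBP-KO at its strongest member, with overlap and a shift of -0.34 ± 0.20 (SE, n = 3 against 3, limma adjusted p = 0.179).

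For the EGF receptor, its ligands and the feedback genes of the MAPK cascade, induced by ERK and acting to restrain it, 65 tested members lay near 20 of 24 listed genes. Here 4 (6.15%) ranked higher and 19 (29.2%) lower, with a median shift of -0.19, against 17.7%, 23.5% and -0.07 over all members. With the GC and length trends removed the counts were 3 (4.62%) and 16 (24.6%), against 17.9% and 19.5% of all members. Leaving out single libraries gave 4 to 5 higher and 12 to 23 lower, with 12 lower without WT library 2. Lower members lay near ligands (AREG, BTC, EREG, NRG1) and near feedback genes (DUSP6, ERRFI1, IER3, PHLDA1, SPRED2, SPRY1 and SPRY4), and higher ones near DUSP1, DUSP5, EGFR and SPRY4. DUSP6 encodes a phosphatase of ERK, and chr12:89192168-89193438, 158.2 kb away, had folds of 11.4, 12.2 and 10.9 in WT and 4.57, 5.92 and 6.38 in CREBBP-KO, without overlap and with a shift of -1.66 ± 0.25 (SE, n = 3 against 3; it passed in WT alone). Near ERRFI1, an inhibitor of the EGF receptor, the strongest member (chr1:8072882-8100022) had 28.8, 30.3 and 25.7 in WT and 27, 23.1 and 24.7 in CREBBP-KO, with overlap in fold and a shift of -0.66 ± 0.19 (SE, n = 3 against 3, limma adjusted p = 0.0101), a call lost without WT library 2 or CREBBP-KO library 2. The tallest members near SPRY1 and DUSP5 did not pass the test, with 31.8, 24.5 and 22.5 in WT and 25.6, 23.5 and 27.9 in CREBBP-KO near SPRY1 and 22, 17.7 and 25.7 in WT and 24.3, 28.7 and 24.5 in CREBBP-KO near DUSP5.

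Genes that mark the mesenchymal state had 28 tested members, 2 higher (7.14%) and 8 lower (28.6%) against 17.7% and 23.5% of all members, with a median shift of -0.27 and a median GC content of 39.4%, and 4 higher and 6 lower with the GC and length trends removed. Leaving out single libraries gave 0 to 4 higher and 6 to 10 lower. Near ZEB1, a repressor of epithelial genes, chr10:31296356-31300563 had 9.04, 8.0 and 8.49 in WT and 3.55, 3.76 and 3.59 in CREBBP-KO, without overlap and with a shift of -2.18 ± 0.28 (SE, n = 3 against 3; it passed in WT alone). TWIST1, a basic helix-loop-helix factor of the same programme, had 13.3, 15.6 and 12.6 in WT and 6.65, 7.14 and 8.5 in CREBBP-KO at chr7:19008350-19011948, a shift of -1.32 ± 0.20 (SE, n = 3 against 3, limma adjusted p = 5.72e-05). The strongest member near COL3A1, a fibrillar collagen gene, had 31, 25 and 24.7 in WT and 17.8, 20.5 and 20.1 in CREBBP-KO and a shift of -1.01 ± 0.17 (SE, n = 3 against 3, limma adjusted p = 1.48e-04). The other members among the 3 strongest of this list lay near COL1A2 and were not called, with shifts of 0.40 and 0.11. Higher members lay near COL3A1 and SNAI2, and lower ones near COL1A1, COL1A2, COL3A1, SNAI2, TWIST1, ZEB1 and ZEB2. At the promoters of the 14 mesenchymal marker genes the CREBBP-KO folds lay above all WT folds for 10 and below them for 1. Folds near starts were higher in CREBBP-KO in general, and the share of all promoters apart by fold was not counted. By rank, 30.9% of tested intervals within 3 kb of a start had all 3 CREBBP-KO libraries above WT and 15.8% below. Of the 22 intestinal factors, promoter folds were above for 4 and below for 0, and of the 14 epithelial markers above for 2 and below for 1. At the ZEB1 promoter the folds were 19.2, 17.6 and 17.4 in WT and 25.8, 33.4 and 32.2 in CREBBP-KO. At PRRX1, the mesenchymal marker below, they were 7.004, 5.20 and 6.04 in WT and 4.31, 3.94 and 4.87 in CREBBP-KO. Members near epithelial markers were 5, near EPCAM and KRT19 among others, with 1 higher and 1 lower. The one near KRT19, a keratin gene, had 6.6, 6.8 and 5.52 in WT and 10.4, 10.8 and 13.8 in CREBBP-KO, a shift of 1.09 ± 0.23 (SE, n = 3 against 3, limma adjusted p = 0.00108), while the member that was lower, near EPCAM, had 10.5, 9.06 and 9.2 in WT and 6.0, 6.62 and 8.17 in CREBBP-KO, a call lost without WT library 1 or CREBBP-KO library 1.

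Among cytokines, chemokines and regulators of NF-kB, 25 tested members gave 5 higher (20%) and 7 lower (28%), shares near those of all members, and 2 to 4 higher and 5 to 7 lower with single libraries left out. IL1B, the gene for interleukin 1 beta, had a member at chr2:112811236-112814803 with 14.5, 14.4 and 15.8 in WT and 8.63, 5.74 and 7.1 in CREBBP-KO, without overlap and with a shift of -1.59 ± 0.22 (SE, n = 3 against 3, limma adjusted p = 2.41e-05). NFKBIZ, a nuclear IkB protein that tunes NF-kB targets, had 7.81, 7.77 and 6.17 in WT and 4.15, 3.93 and 2.79 in CREBBP-KO, a shift of -1.88 ± 0.32 (SE, n = 3 against 3; it passed in WT alone). The tallest members near NFKB1, LIF and CXCL2 were not called.

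Adhesion and matrix genes had 44 tested members, 10 higher (22.7%) and 7 lower (15.9%), against 17.7% and 23.5% of all members. Near FN1, which encodes fibronectin, the member 25.2 kb away had 15.5, 15.7 and 14.5 in WT and 27.6, 27.4 and 24 in CREBBP-KO and a shift of 0.85 ± 0.17 (SE, n = 3 against 3, limma adjusted p = 5.37e-04), while the taller one 91.6 kb away was not called, with 28.4, 27.8 and 19.6 in WT and 23.8, 31.1 and 31.9 in CREBBP-KO and a shift of -0.03 ± 0.22 (SE, n = 3 against 3, limma adjusted p = 0.936). ITGB6, an integrin subunit of epithelia, had 3.59, 2.01 and 2.68 in WT and 6.39, 6.99 and 6.42 in CREBBP-KO, with a shift of 2.35 ± 0.38 (SE, n = 3 against 3; it passed in CREBBP-KO alone), and TNC, tenascin C, had 5.65, 6.48 and 5.71 in WT and 4.2, 2.2 and 3.42 in CREBBP-KO, with a shift of -1.85 ± 0.39 (SE, n = 3 against 3; it passed in WT alone).

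YAP and TEAD factors and targets had 27 tested members, 3 higher (11.1%) and 5 lower (18.5%), against 17.7% and 23.5% of all members. AMOTL2, a target that in turn binds and holds back YAP, had 8.03, 8.47 and 8.05 in WT and 18.2, 19.4 and 19.9 in CREBBP-KO at chr3:134324491-134337830, the clearest separation of this list, with a shift of 1.39 ± 0.17 (SE, n = 3 against 3, limma adjusted p = 5.58e-06). LATS2, the kinase that inactivates YAP, had 9.2, 8.24 and 8.28 in WT and 4.52, 6.55 and 4.95 in CREBBP-KO, a shift of -1.27 ± 0.29 (SE, n = 3 against 3; it passed in WT alone). At the tallest member of the list, near CCN1, folds were 34.7, 23.8 and 27.9 in WT and 38.3, 36.5 and 36.3 in CREBBP-KO, and the shift was 0.27 ± 0.22 (SE, n = 3 against 3, limma adjusted p = 0.337).

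Wnt genes had 16 tested members, 4 higher (25%) and 2 lower (12.5%), too few to set against the shares of all members. DKK1, a secreted Wnt inhibitor, had both: 16.8, 16 and 17.2 in WT and 9.55, 8.94 and 10.02 in CREBBP-KO at chr10:52442370-52444709, and 3.89, 4.9 and 5.69 in WT and 7.27, 7.07 and 7.71 in CREBBP-KO at chr10:52490485-52492154, with shifts of -1.22 ± 0.17 (SE, n = 3 against 3, limma adjusted p = 1.87e-05) and 0.96 ± 0.30 (SE, n = 3 against 3; it passed in CREBBP-KO alone). The second of these calls was lost without WT library 1 or CREBBP-KO library 3. FZD2, a Wnt receptor, had 15.5, 15.7 and 16.5 in WT and 23.1, 23.2 and 21.8 in CREBBP-KO, with a shift of 0.45 ± 0.16 (SE, n = 3 against 3, limma adjusted p = 0.0283). Its call was lost when WT library 1 or 2 or CREBBP-KO library 1 or 2 was left out.

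Of 9 tested members near AP-1 genes, 1 ranked higher, that near JUND, with 14.5, 13 and 16.7 in WT and 23.8, 23.4 and 21.7 in CREBBP-KO and a shift of 0.64 ± 0.17 (SE, n = 3 against 3, limma adjusted p = 0.00533), and 0 ranked lower. It had a GC content of 61.9% and did not pass with the GC and length trends removed, where the list had 0 higher and 1 lower. The 2 tallest members near JUN were not called. Near intestinal transcription factors, 11 tested members gave 1 higher, near KLF4, and 2 lower. These counts, like those near AP-1 genes, are too few to set against the shares of all members. A lower one near EHF, 43.1 kb away, had 7.81, 9.6 and 9.0 in WT and 6.53, 4.17 and 5.37 in CREBBP-KO (it passed in WT alone). The KLF4 one, 148.2 kb away, had 7.88, 4.6 and 4.77 in WT and 10.2, 7.31 and 10.6 in CREBBP-KO (it passed in CREBBP-KO alone). The KLF4 call was lost without WT library 2 or CREBBP-KO library 1 or 3. Immune, endothelial and neural markers had 3 members, of which the one near TEK was called lower, with 21.4, 19 and 21.9 in WT and 19.3, 19.2 and 13.6 in CREBBP-KO, although the TEK promoter had no peak in any library. This call was lost without CREBBP-KO library 3.

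Members lay in groups. With a member of the same set within 10 kb were 1962 (34.6%), and within 50 kb 3742 (66.1%). The 5664 members had 2910 nearest genes, of which 1628 had 1 member, 198 had at least 5 and OGFRL1 had the most, 13, of which 7 ranked lower and 0 higher. Shifts of neighbours were alike over short distances. Over pairs of consecutive members under 10 kb apart the correlation of shifts was 0.33 (1079 pairs), from 10 to 50 kb it was 0.22 (1350 pairs), from 50 to 200 kb 0.16 and from 200 kb to 1000 kb 0.05. These describe pairs that share libraries and, when close, base composition.

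Runs of called members less than 50 kb apart, in 1 direction and with no call in the other between them, held 250 of the 969 higher members (25.8%) and 441 of the 1286 lower members (34.3%). Lower members were the more numerous, and runs were not counted in the other position classes. These counts include members that passed the fold filter in 1 genotype alone, which leans them towards it. The upward run with the most called members was near HS6ST1, a heparan sulfate sulfotransferase gene, where 5 of 6 members from 128362252 to 128424028 on chromosome 2 ranked higher, with shifts of 0.71 to 1.53. Near ALOX5AP, which activates 5-lipoxygenase, and MEDAG, 4 of 4 members over 38.5 kb of chromosome 13 did so, with shifts of 0.59 to 2.20. Near FRMD6, a Hippo pathway gene on chromosome 14, 4 of 5 did so, with shifts of 0.52 to 1.41.

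The most called members in a downward run was 5, and the 3 shortest such runs are given here. All 5 members over 56.1 kb of chromosome 4 near EDNRA, the endothelin A receptor gene, and TMEM184C ranked lower, with shifts of -0.84 to -1.60. Near COL5A2, a collagen V chain, and WDR75, 5 of 7 members on chromosome 2 did so, with shifts of -0.50 to -1.72. All 5 members over 70.4 kb of chromosome 20 near PRNP, the prion protein gene, ranked lower, with shifts of -0.83 to -1.81. Directions differed among autosomes: of tested members on chromosome 4, 9.30% ranked higher and 33.4% lower at a median GC content of 39.8%, on chromosome 16 29.3% and 14.7% at 48.0%, on chromosome 17 24.1% and 14.1% at 46.8%, and on chromosome 22 27.3% and 12.1% at 51.5%. Chromosomes did not all follow GC content, as chromosome 19 had 15.4% higher and 28.8% lower at 48.5%, and chromosome 20 had 15.5% and 24.8% at 45.99%. Of tested members on chromosome X, 5.84% ranked higher and 24.7% lower at 42.5%, where the median over all members was 42.3%. What part of this goes with base composition was not tested.

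The AP-1 motif TGANTCA, read on both strands within 500 bases of each summit, was present at 60.1% of members. Here N is any base, so TGAATCA, as near UST, counts along with TGACTCA and TGAGTCA. The share for TGACTCA and TGAGTCA alone was not counted. The share was 59.3% for intervals inside genes, 60.9% beyond 200 kb, 28.5% within 3 kb of a start and 45.5% over all kept intervals. It did not separate the directions, with 59.8% of members ranked higher, 61.5% of those ranked lower and 59.7% of the rest. Nor did the share within 500 bases follow height, with 59.7% in the strongest quartile and 59.9% in the weakest. Within 150 bases, however, it was 9.99% in the strongest quartile and 15.0% in the weakest. The position of matches did follow the summit. In bins of 100 bases there were 0.35 to 0.39 matches per kb next to the summit, 1.15 to 1.23 at 200 to 400 bases on either side, and 0.355 to 0.383 at 900 to 1000 bases. Within 150 bases of the summit 12.7% of members held a match. Of the 8 sites printed above, 6 lie in these flanks, among them those 250 bases from the summit near KIF18A and 288 near AKR1E2, while the site near LRRC3B is at 174 bases and that near LRATD1 at -422.

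Other motifs were counted the same way, each on both strands and separately, so that neighbouring matches may share bases. The TEAD motif GGAATG was present at 54.0% of members (47.3% of all kept intervals), the RUNX motif TGTGGTT at 21.7% (18.2%), the GATA motif AGATAA at 48.3% (40.7%) and the FOX motif TGTTTAC at 17.9% (15.4%). Motifs common near starts were rarer at members: the ETS motif CCGGAAG at 4.94% (11.9%), the E-box CACGTG at 10.7% (12.9%) and the CRE TGACGTCA, to which CREB proteins bind, at 0.671% (1.66%). Between the directions, the GC-rich KLF motif GGGTGTGG was present at 12.9% of higher and 5.99% of lower members and ETS at 7.33% and 3.34%, while the AT-rich FOX motif was at 13.52% and 21.0% and GATA at 44.2% and 52.3%. These differences go the way of the GC content of the windows and were not tested apart from it. TEAD, at 54.0% and 54.1%, and RUNX, at 21.9% and 21.4%, were alike. The NF-kB motif GGGANTTCC was at 3.27% of members (3.92% of all kept intervals).

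Members were mostly not CpG islands. Windows with a GC content over 55% and an observed to expected CpG ratio over 0.65 made up 116 of 5664 members (2.05%), 4.02% of the higher members and 0.544% of the lower, against 47.5% of intervals within 3 kb of a start. The median length of members was 2762 bases, against 2531 for intergenic intervals under 10 kb, 2768.5 beyond 200 kb, 3344 inside genes and 3230 within 3 kb of a start.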

How the data were processed

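The data were the narrow peak lists of 6 H3K27ac ChIP-seq libraries of HCEC-1CT cells, 3 WT and 3 CREBBP-KO, and 2 input libraries were not used here. Per the methods, the authors ran nf-core (ChIP-seq, release 2.0.0) on hg38, with MACS2 peaks called library by library. BWA is named in the submitters' processing notes. The deposited lists give the fold enrichment of each peak (a linear ratio over local background) with −log10 p and −log10 q, and a deposited score that was not used. The methods describe a run on all reads and a second on reads downsampled with seqtk to a common maximum. Which run gave the deposited lists, and the control for the calls, are not given in the sources used here. As read counts are not part of the lists, the depth behind each is unknown, no counting intervals were computed, and the study's DiffBind test was not run.

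Overlapping peaks on chromosomes 1 to 22, X and Y were merged into 143679 intervals, the highest peak of each library giving its fold. For the 34847 kept intervals with peaks in all 6, ranks of the fold were turned into normal scores and fitted with limma 3.58.1 (lmFit, eBayes with a trend, R 4.3.3) as CREBBP-KO minus WT, two-sided, with Benjamini-Hochberg adjustment over all of them. Ranks show order within a library, so a change of equal size everywhere would not be seen. For medians per library, exact permutation tests (two-sided) were used. The fit was tested on simulated data, where the share of false calls exceeded the nominal level when very many intervals were shifted, hence the stricter threshold given beside the counts. Motifs were searched in hg38 in 500 bases either side of each summit.

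The members named in the text were the 6 strongest, the 10 largest called shifts without overlap in each direction, the 4 tallest restricted ones per genotype, and for each gene list the 3 strongest and the largest called shifts, with the 3 runs holding most called members in each direction. Members and lists were chosen with earlier results of these data known. Replicate numbers did not pair the libraries: the correlations of deviations between same-numbered libraries were 0.0106, 0.0142 and 0.0281. Alternatives to the filter, merging, annotation, ranking, model and threshold were tried, as were fits without 1 library. Other software was samtools 1.23.1, scipy 1.17.1, pandas 2.3.3 and Python 3.11.15.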

Additional observations from a re-analysis of the deposited data

Results flagged for a closer look

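A signal was present in peaks that the fold filter removed. Intergenic intervals in the same range of distances that missed the filter numbered 16327. Peaks in each of the CREBBP-KO libraries, with WT lacking any, occurred at 812 of them, and the reverse at 289. The CREBBP-KO lists were longer than the WT lists, and the part of this in the 812 was not tested. Counts for the other position classes are not given, so the imbalance cannot be called particular to this range.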

How the results depend on the processing

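The depth behind each list is unknown, the clones behind each population are not stated, and ranks cannot show a uniform change, which limits every count above. With a fold of at least 3 there were 10480 members, 78.6% with a peak in all 6 libraries, 1280 and 2042 passing only in WT or only in CREBBP-KO, 185 and 476 restricted, and 58.5% with an AP-1 motif. With a fold of at least 10 there were 1895 members, 99.9% in all 6, 356 and 501 passing alone, 1 and 0 restricted, 333 ranked higher and 600 lower, and the height over intervals inside genes was 0.058 (exact sign-flip permutation p = 0.0938). Asking for the fold in at least one of 3 libraries with peaks, 88.6% had a peak in all 6, and 72 and 155 were restricted. With −log10 q of at least 5 these values were 90.6%, 47 and 76, and with summit windows merged in place of peaks 79.9%, 54 and 68. With an adjusted p under 0.0001, 82 members ranked higher and 120 lower. In windows of 150 bases either side, 12.7% held an AP-1 match.

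Leaving out each library in turn gave 96.3% to 96.8% of members with a peak in all remaining libraries, 15 to 22 WT-restricted and 33 to 43 CREBBP-KO-restricted members, 753 to 951 ranked higher and 1056 to 1294 lower, and a height over intervals inside genes of 0.084 to 0.104, where 5 libraries cannot give an exact permutation p under 0.0625. A fit with the replicate block, for numbers that do not pair the libraries, gave 969 higher and 1296 lower. The 20 largest shifts kept their direction over the alternatives, which is no sign of stability because each passed the fold filter in 1 genotype alone. Of 27 named members that were not called, 11 changed sign in at least one alternative and 9 were called in at least one. No alternative reversed the shift of a named member that was called, while near AP-1 genes 1 higher and 0 lower became 0 and 1 with the GC and length trends removed.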
